A study of Citrus sinensis and Citrus junos and Citrus trifoliata with 12 samples.

Results

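In grafted orange trees, 59 genes were expressed in the roots of both rootstocks and were at or near 0 in the scion grown on them. They were chosen by their FPKM (the authors' measure of transcript level, a fragment count scaled to gene length and library size) and were those with at least 10 FPKM in all 4 root libraries, at most 0.5 FPKM in all 8 stem and leaf libraries, and mean levels in the 2 kinds of root within 4-fold of each other. They were 59 of 26559 gene IDs listed in at least 1 library, or 0.222%. Of the 6785 genes with at least 10 FPKM in every root library, 67 (0.987%) stayed under the scion limit, and 8 of these were left out because the rootstocks differed more than 4-fold, 6 of them higher in Cj and 2 in Pt. Since measured levels chose the genes, the gap between root and scion and the closeness of the 2 roots are given as a description with no test.

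The trees carried the navel orange 'Lane Late' (Citrus sinensis) as scion on one of 2 rootstocks, Ziyang xiangcheng (Citrus junos, Cj) or trifoliate orange (Poncirus trifoliata, Pt). They were planted in a single orchard in 2009, and poly(A) RNA of root, stem and leaf was sequenced in 2015, with 2 libraries for each of the 6 groups and a stage of 140 DAF on every label. Roots were of the rootstock and stem and leaf of the scion, so organ and species cannot be told apart between root and scion. The series title names saline-alkali stress, but no label separates stressed from unstressed trees, and no label ties a replicate to a tree of its own. The sample titles mark the replicates as "bio" without saying whether they came from separate trees. P-values therefore reflect how far these libraries differ, which may not be the spread between trees. The 12 libraries held 9356633 to 11383332 estimated counts.

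Roots take up water and mineral ions and screen them at inner cell layers before they reach the xylem, the conduit to the shoot. Plant genes known for root-restricted expression include ion and water transporters, makers of the lignin and suberin barriers, and enzymes of root defence compounds. In a grafted tree the root system keeps the genome of the rootstock and the shoot that of the scion, joined through the vascular tissue. None of the 59 IDs could be paired with a gene name, so they are given by ID with no function, and neither marker genes of cell types nor pathway lists could be applied. In whole organs, fewer cells of a type and less RNA per cell cannot be told apart.

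By reads, the shares taken by the 59 genes overlapped between the rootstocks. By FPKM, which is per length, the share was higher in Pt roots, where 2 genes weighed more. Their summed estimated counts were 0.329% and 0.337% of all counts in the Cj root libraries and 0.347% and 0.324% in the Pt root libraries. Their summed FPKM was 0.559% and 0.586% of all FPKM in Cj roots (0.572% ± 0.0187, SD, n = 2) and 0.774% and 0.654% in Pt roots (0.714% ± 0.0850, SD, n = 2), with both Pt libraries above both Cj libraries. The 2 highest genes held 30.3% of the summed mean FPKM in Pt roots and 13.7% in Cj roots. By mean, 31 of the 59 genes were higher in Cj and 28 in Pt, so the higher Pt share does not describe the genes as a set. In the 8 scion libraries the summed counts were 29.0 to 106 in all, between 0.000264% and 0.000930% of counts. Pooled over libraries, the share was 651-fold higher in root than in scion. Within a root library the genes spanned a wide range of levels, from 10.1 to 744 FPKM, with a median of 38.1 to 40.3 FPKM in each library. By mean over the 4 root libraries, 7 genes stood at 100 FPKM or more, 15 from 50 to 100, 28 from 20 to 50 and 9 below 20. Their median of 37.3 FPKM lay close to that of the 6785 root genes, 33.3 FPKM.

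**Figure D1:**
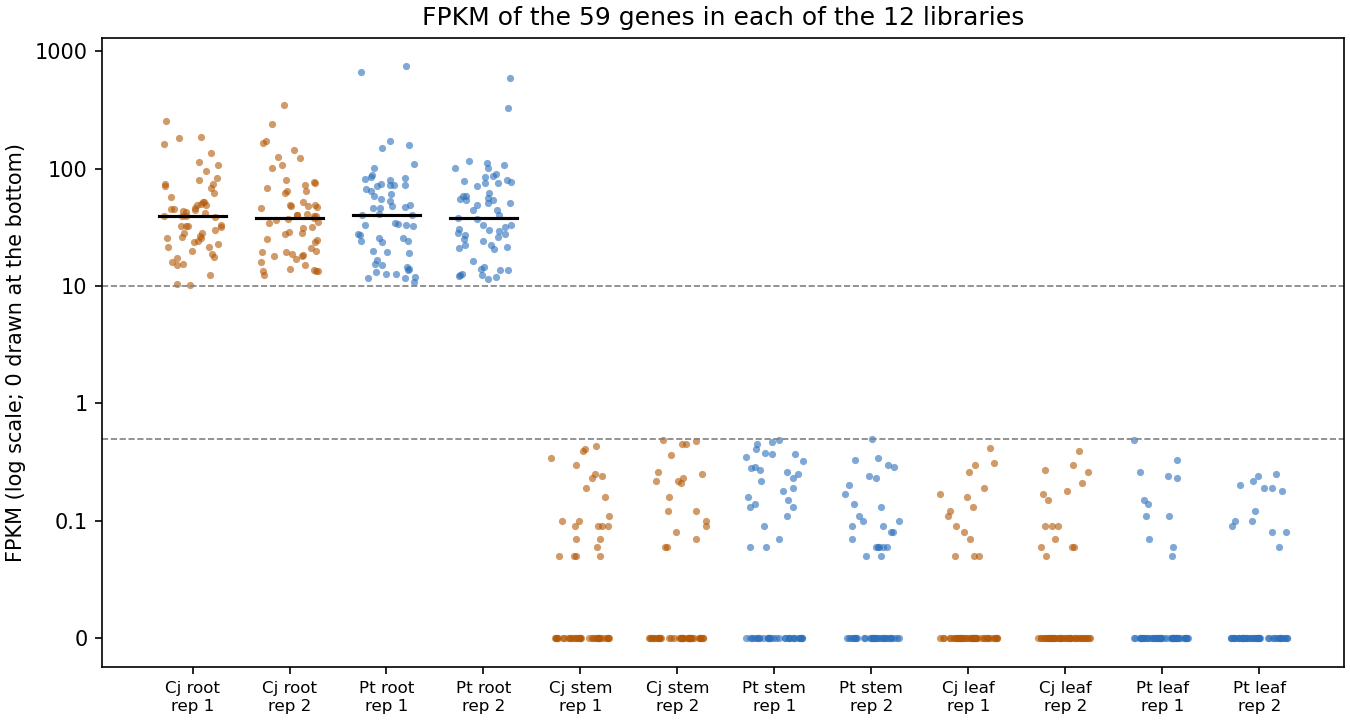
FPKM of each of the 59 genes (points, log scale with 0 drawn at the bottom) in each library, Cj in orange and Pt in blue, with black bars at the root medians and dashed lines at the rule's limits of 10 and 0.5 FPKM. The root medians lie between 38.1 and 40.3 FPKM, and most points in every scion library lie at 0.

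The most abundant member was Cs8g07250. It stood at 185 and 166 FPKM in the Cj root libraries and 744 and 588 FPKM in the Pt root libraries, and it had no counts in any of the 8 scion libraries. Both Pt roots lay above both Cj roots, and the Pt mean of 666 ± 110 FPKM was 3.80-fold the Cj mean of 175 ± 13.1 FPKM (SD, n = 2 each), which is the ratio nearest to the rule's limit on that side. The second was Cs9g19210, at 184 and 351 FPKM in Cj roots and 672 and 332 FPKM in Pt roots, and likewise without a count in the scion. Its rootstock ranges overlapped. Together these genes made up 13.7% of the summed mean FPKM of the 59 in Cj roots and 30.3% in Pt roots. Pooled over libraries, and with 3 counts over all 8 scion libraries taken as the floor, Cs8g07250 was at least 5832-fold and Cs9g19210 at least 4255-fold higher in root than in scion.

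Genes lay close to the root floor and the scion ceiling on both sides, while outside the ratio limit the nearest genes lay further off. Just inside the root floor was Cs2g22740, whose lowest root library stood at 10.1 FPKM, and just outside it Cs3g23160 at 9.98 FPKM. At the scion ceiling, Cs3g15210 reached 0.50 FPKM and was kept, and Cs1g14690 reached 0.51 FPKM and was not. By ratio, Cs2g16830 (3.91-fold higher in Cj) and Cs8g07250 (3.80-fold higher in Pt) were kept, and Cs7g29750 (4.98-fold higher in Cj) and Cs8g07260 (5.98-fold higher in Pt) were not.

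Within the allowed 4-fold range, the genes were spread to both sides. The rootstocks are different species and the genome build is not stated. Expression and how well the reads of each species match the reference therefore cannot be told apart in these ratios. In 31 genes the Cj mean was higher and in 28 the Pt mean, and the median log2 ratio of Cj to Pt was 0.09, against -0.05 over all 6785 root genes. In 46 genes (78.0%) the means were within 2-fold, against 84.6% of the 6785, while 7 were at least 2-fold higher in Cj and 6 in Pt. Both Cj libraries lay above both Pt libraries in 27 genes and below them in 22, leaving 10 with overlap. Among all 6785 root genes 84.1% did not overlap, with Cj above in 38.9% and Pt above in 45.2%. By edgeR's quasi-likelihood test 34 of the 59 differed between the roots at an adjusted p under 0.05, 19 higher in Cj and 15 in Pt, where 51.7% of all 21261 genes tested did (27.4% and 24.3%). The rule bounds this contrast, so nothing is read from these counts.

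The genes leaning furthest to Cj were Cs2g16830 and Cs6g08630. Cs2g16830 stood at 79.3 and 64.9 FPKM in Cj roots and 14.5 and 22.4 FPKM in Pt roots. Cs6g08630 stood at 48.9 and 48.4 FPKM in Cj roots and 13.6 and 12.5 FPKM in Pt roots, 3.73-fold apart in the means. In both the groups were well separated, with tighter replicates in Cs6g08630. Furthest to Pt, after Cs8g07250, was Cs5g14180, at 32.7 and 13.5 FPKM in Cj roots and 73.0 and 100.7 FPKM in Pt roots, a 3.77-fold difference in means over replicates that were 2.43-fold apart in Cj.

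Other members were level across both species. The smallest spread over the 4 root libraries belonged to Cs5g18010, at 61.7 and 61.6 FPKM in Cj roots and 58.0 and 55.6 FPKM in Pt roots, a coefficient of variation of 5.03%. Cs7g24360 followed, at 49.9 and 48.1 FPKM in Cj roots and 48.2 and 44.2 FPKM in Pt roots (5.09%). Its 2 groups overlapped and those of Cs5g18010 did not. Over the 59 genes this coefficient reached 71.6%.

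**Figure D2:**
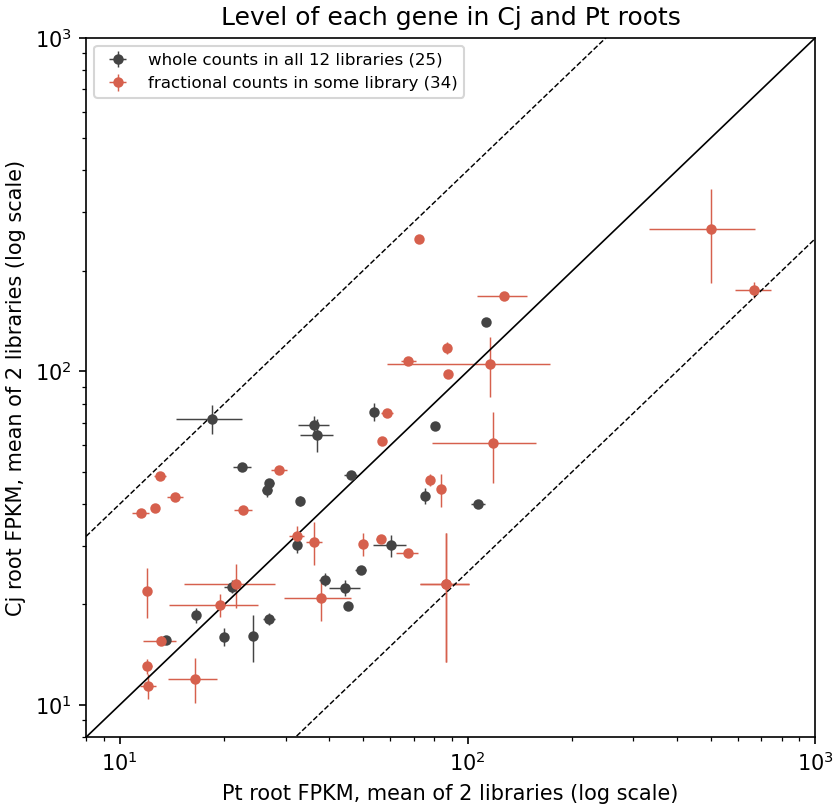
Mean FPKM of each of the 59 genes in Pt roots (horizontal) and Cj roots (vertical), both on log scales, with bars from the lower to the higher of the 2 libraries, a solid line of equality and dashed lines at 4-fold. Genes with fractional counts in some library are red (34) and the other 25 are dark grey; most of the long bars belong to red points.

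The genes were short and mostly had a single annotated transcript, which the rule did not ask for. Their median length was 1083 bases (quartiles 665 and 1502), against 1770 bases for the 6785 root genes and 1474 for all IDs. Under 700 bases were 17 of 59 (28.8%), against 6.32% of the root genes. A single transcript was listed for 57 of 59 (96.6%), against 47.1% of the root genes and 71.5% of all IDs. It was also listed for each of the 8 genes left out by ratio alone. The scion limit bears on length. By annotated length, 1 count in a scion library of mean depth is worth about 0.377 FPKM in the shortest member (240 bases). In the longest (3030 bases) it is worth about 0.0298 FPKM. The deposited FPKM per count ran somewhat higher in short genes. The shortest could thus pass with at most 1 count there. IDs of the form orange1.1t made up 13 of the 59 (22.0%), against 12.7% of the root genes and 18.8% of all IDs.

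The genes also differed from root genes at large in how their reads were counted. An estimated count that is not whole arises where a read is shared out among several genes or transcripts. Only 25 of the 59 (42.4%) had counts that were whole within 0.005 in all 12 libraries, against 78.1% of the 6785 root genes. Length went with this: among root genes under 700 bases 59.7% had whole counts, and 1 of the 17 members of that length did. Of the 42 longer members 24 did, against 79.3% of longer root genes. The 34 members with fractional counts held 57.9% to 61.6% of the members' counts in each root library. Most of the 8 genes left out by ratio alone had fractional counts too, so this was not particular to the members.

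Root replicates were far apart for some members. Among the 8 genes left out by ratio alone, Cs1g25570 and Cs8g07260 were also over 1.5-fold apart (1.61-fold and 1.67-fold in Pt), and the rest were not. Replicates differed by more than 1.5-fold in Cj or in Pt roots in 9 of the 59 genes (15.3%), against 1.90% of the 6785 root genes. For most members they were close, with a median replicate ratio of 1.095 in Cj and 1.090 in Pt, against 1.060 and 1.087 over the root genes. Of these 9 genes, 8 had fractional counts and 7 were also under 700 bases. Among the 6785 root genes 129 were that far apart, of which 55 had fractional counts and 32 were also under 700 bases. Of the 429 root genes under 700 bases, 53 were that far apart. Cs5g14180 and Cs5g14290 are both among the 9 and hold 1 measurement. Whether the sharing of reads set the difference was not tested. Cs9g19210 (405 bases, values above) and orange1.1t05456 (240 bases) moved alike. The latter stood at 46.4 and 75.4 FPKM in Cj roots and 157 and 79.0 FPKM in Pt roots, so both genes were higher in replicate 2 of Cj and in replicate 1 of Pt. These 2 genes and the 3 that follow were chosen with their values already in view.

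**Figure D3:**
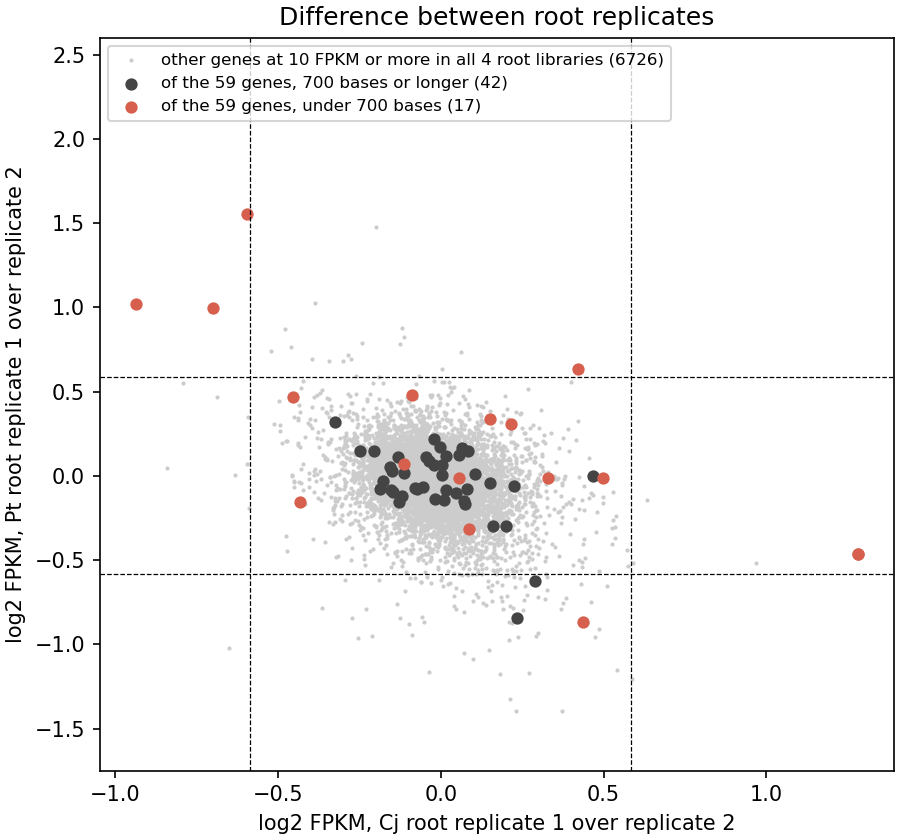
Log2 ratio of FPKM in replicate 1 to replicate 2 for Cj roots (horizontal) and Pt roots (vertical), with dashed lines at 1.5-fold; grey points are the other 6726 genes at 10 FPKM or more in all root libraries. Members under 700 bases (red, 17) include the points furthest from the centre, and most of the 42 longer members (dark) lie inside the dashed square.

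Among all 6785 root genes, the widest replicate gap in Cj roots and the widest in Pt roots fell on 3 members of equal length (663 bases). The IDs of these 3 lay close together. Cs5g14180 and Cs5g14290 had identical estimated counts in all 12 libraries, so the 2 IDs hold 1 measurement. Their replicates were 2.43-fold apart in Cj roots, the widest of all in Cj. The third, Cs5g14210, stood at 83.9 and 127 FPKM in Cj roots and 173 and 58.8 FPKM in Pt roots, 2.94-fold apart in Pt and the widest there. It was high in each species where the other pair was low. Summed over the 3 IDs, the levels were 149 and 154 FPKM in Cj roots and 319 and 260 FPKM in Pt roots, with replicates 1.03-fold and 1.23-fold apart. The sum was 1.91-fold higher in Pt roots (290 ± 41.4 against 151 ± 3.05 FPKM, SD, n = 2 each). Single IDs were 2.43-fold (Cs5g14180 and Cs5g14290) and 1.51-fold (Cs5g14210) apart in Cj and 1.38-fold and 2.94-fold apart in Pt. Whether shared reads set these gaps was not tested. The 7 listed IDs that lie between them reached at most 5.92 FPKM in any root library.

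**Figure D4:**
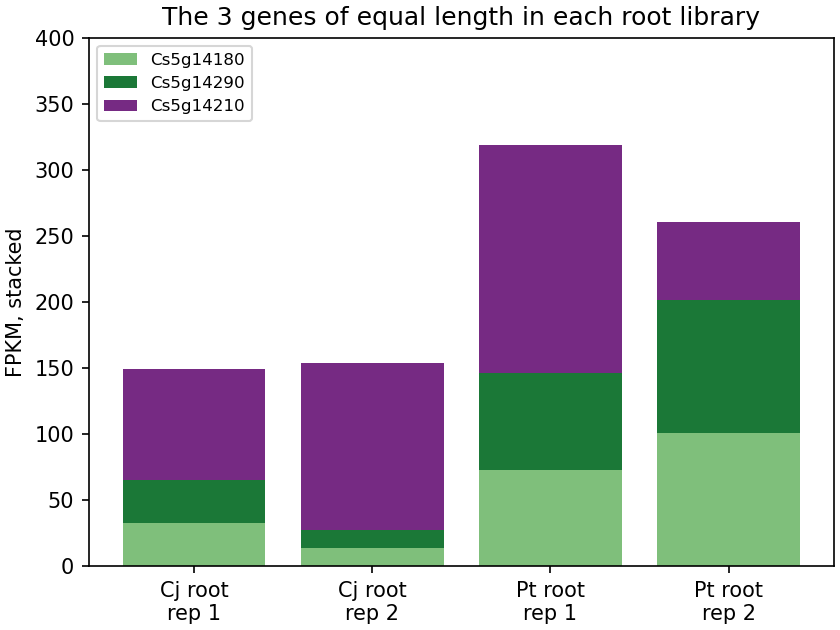
FPKM of Cs5g14180, Cs5g14290 and Cs5g14210 stacked for each root library. The stacks reach 149 and 154 FPKM in Cj and 319 and 260 FPKM in Pt, while the part taken by Cs5g14210 changes between replicates.

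Some members lay close to each other in ID number. Counting along the listed IDs with the same start, 5 pairs were within 10 of each other and involved 9 members, and Cs9g05770 and Cs9g05790 were consecutive. Cs9g05770 stood at 113 and 122 FPKM in Cj roots and 87.8 and 86.6 FPKM in Pt roots. Cs9g05790 stood at 163 and 173 FPKM in Cj roots and 149 and 107 FPKM in Pt roots, so both were lower in Pt. The ID before them, Cs9g05760, was no member, at 25.5 to 29.8 FPKM in roots and 128 to 181 FPKM in stem and leaf. Both Cs8g07250 and Cs2g15490 had a neighbour that met every limit but the ratio. Cs8g07260, next to Cs8g07250, stood at 21.3 and 30.6 FPKM in Cj roots and 194 and 116 FPKM in Pt roots, without a count in the scion. It was higher in Pt, as its neighbour was. Cs2g15480 stood at 95.1 and 112 FPKM in Cj roots and 10.8 and 14.9 FPKM in Pt roots. The member next to it, Cs2g15490, was level, at 29.8 and 34.4 FPKM against 33.9 and 30.6 FPKM.

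Silence in the scion was near but not complete. In 15 of the 59 genes no count was listed in any of 8 scion libraries, which for each allows up to 3 counts in 88480054, and these were at least 259-fold to 5832-fold higher in root. They were short, with a median of 552 bases against 1254 for the other 44, and 7 of the 15 had orange1.1t IDs. In a further 12 genes the 8 libraries held 3 counts or fewer in all. In the other 32 the pooled root level was 72.5-fold to 2526-fold the scion level, with a median of 511-fold. The 10 members of highest root FPKM, with 48800 root counts, had 52.9 scion counts. The 10 of lowest root FPKM, with 7984 root counts, had 162, of which 67 came from Cs1g19290, the longest member (3030 bases). Counts depend on length and the rule limited both root and scion levels, so no relation between them is read from these sums.

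Most of the scion trace was in stem. The summed counts were 70.0 and 79.9 in stem on Cj, 106 and 61.6 in stem on Pt, 41.5 and 32.2 in leaf on Cj, and 34.7 and 29.0 in leaf on Pt. Every stem library lay above every leaf library, and the rootstocks overlapped in both organs. The mean was 79.4 ± 19.2 in stem and 34.4 ± 5.32 in leaf (SD, n = 4 each), a ratio of 2.31. Stem libraries listed 20 to 28 of the 59 genes and leaf libraries 12 to 16, while of all 26559 IDs stem libraries listed 86.3% to 87.2% and leaf libraries 83.6% to 84.3%. Counts came from stem without leaf in 15 genes, from leaf without stem in 2 and from both in 27.

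**Figure D5:**
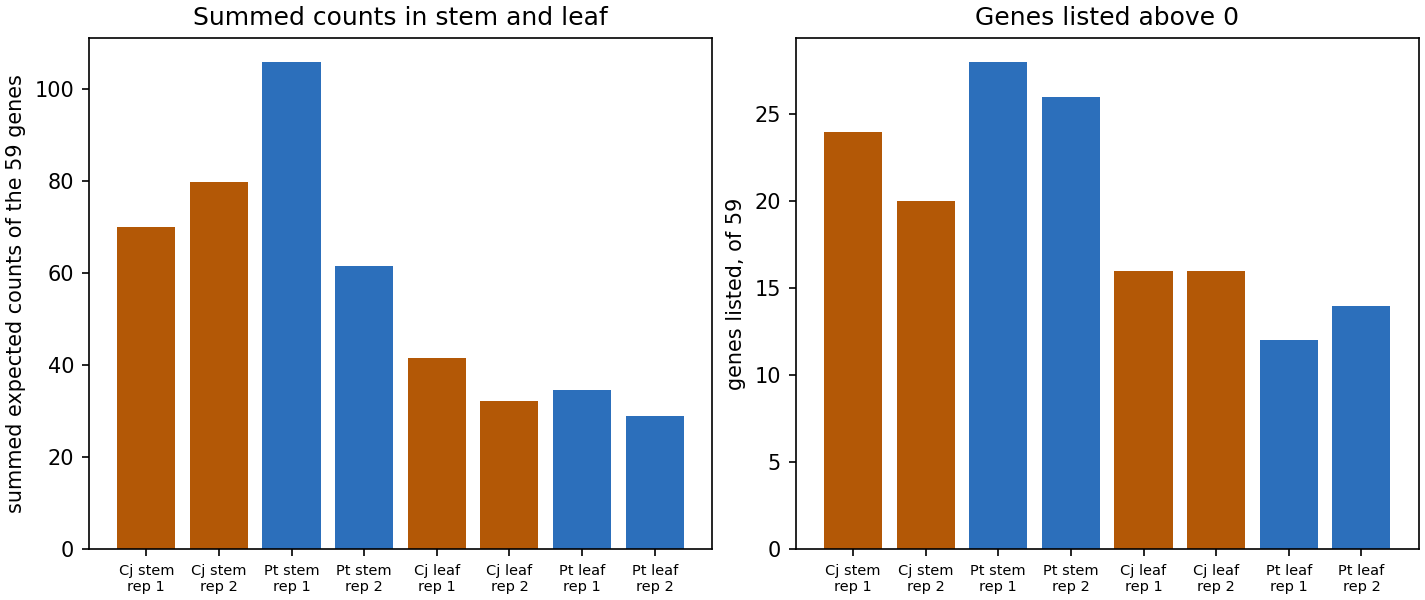
Summed estimated counts of the 59 genes (left) and number of them listed above 0 (right) in each scion library, Cj in orange and Pt in blue. The stem bars stand at 61.6 to 106 counts and 20 to 28 genes, and the leaf bars at 29.0 to 41.5 counts and 12 to 16 genes.

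All 59 genes entered the fit, but through their root libraries: with the 8 scion libraries alone 1 of them passed the filter on low counts. The rule also capped their scion values, equally in stem and leaf, so nothing is read from how many were called in the scion. Between leaf and stem, with rootstocks averaged, 10 of 59 (16.9%) were called at an adjusted p under 0.05 by edgeR's quasi-likelihood test, 9 lower and 1 higher in leaf. Among all genes tested 54.7% were called, 27.8% lower and 26.9% higher in leaf. The median log2 fold change was -0.11 over the members and -0.00 over all genes.

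The members named next were picked by these calls, which they entered through their root counts. Their few scion counts are therefore given as a description only. Cs8g01150 had the largest fitted difference. It had 7 and 8 counts in stem on Cj, 4 and 6 in stem on Pt and none in the 4 leaf libraries, which makes it at least 8.34-fold higher in stem against a floor of 3 counts over the leaf libraries. In roots it stood at 16.4 to 19.6 FPKM. Next was orange1.1t03774, with 6 and 6.97 counts in stem on Cj, 9 and 2 in stem on Pt and none in leaf, or at least 7.99-fold higher in stem. The one member called higher in leaf was Cs8g19110. It had 1 and 0 counts in stem on Cj, 3 and 2 in stem on Pt, 9 and 6 in leaf on Cj and 7 and 4 in leaf on Pt, a pooled difference of 4.33-fold per library total. In each of these 3 genes the counts of all stem libraries lay apart from those of all leaf libraries, at a few counts per library.

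The highest mean levels over the 8 scion libraries belonged to Cs1g19290 and Cs3g27810. Cs1g19290, the longest member, was the only one of the 59 listed in all 8 scion libraries, at 0.43 and 0.49 FPKM in stem on Cj, 0.32 and 0.30 in stem on Pt, 0.17 and 0.06 in leaf on Cj and 0.14 and 0.06 in leaf on Pt. Stem lay above leaf throughout, and its roots stood at 15.0 to 20.5 FPKM. The fitted log2 fold change of leaf against stem was -1.60 with standard error 0.33. The adjusted p by edgeR was 0.00102, and 0.0113 with the scion libraries alone, which it was the 1 member to enter. The rule had capped these values and the gene was named for its scion level, so nothing is read from the call. Cs3g27810 was listed in 7 scion libraries at up to 0.39 FPKM, with 15 counts in stem and 13 in leaf. In roots it stood at 51.7 and 51.9 FPKM in Cj and 23.9 and 21.2 FPKM in Pt.

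Between rootstocks few members were called in the scion. In stem 0 of 59 genes were called between Cj and Pt by edgeR's quasi-likelihood test, where 4.43% of all 21261 genes were. DESeq2 called 0 members and 1069 of all 21261 genes. Limma on log2(FPKM + 0.1) called 1 member and 178 of all 21261 genes. In leaf 1 of 59 (1.69%) was called, where 8.31% of all genes were, 4.43% higher and 3.88% lower on Cj. At a few counts per library, differences of this kind were mostly not detectable. The gene called in leaf was Cs4g15770, with 6 and 4 counts in leaf on Cj and none on Pt, or at least 3.40-fold higher on Cj against a floor of 3 counts over both Pt leaf libraries. Its adjusted p by edgeR was 0.00817, but 0.0706 without Pt leaf replicate 1 and 0.0717 without replicate 2, and with the leaf libraries alone no member passed the filter. It was also the 1 of 59 called for a rootstock difference that itself differed between stem and leaf, where 0.367% of all genes were called. The gene entered the fit through its root counts and the rule had capped its scion values, so nothing is read from either call. Its roots were nearly level, at 15.4 and 15.9 FPKM in Cj and 13.3 and 13.9 FPKM in Pt.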

How the data were processed

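Per the file headers, the authors deposited for each library an expected count per gene, an estimated count that is not scaled to depth. Per the file headers, they also deposited FPKM, which divides counts by gene length and library total. The labels describe oligo(dT) selection, random-primed cDNA and PCR. For the aligner, counter, genome build and strand setting, nothing is stated in the sources used here, so values of overlapping or near-identical genes are uncertain. Genes absent from a table were set to 0. Of 26559 IDs, 0 matched the 29331 genes of a RefSeq table.

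Members came from the rule on FPKM. Rounded expected counts went into edgeR 4.0.16 (limma 3.58.1, R 4.3.3) for the quasi-likelihood test: filterByExpr, TMM, 1 fit of 6 group means (6 residual degrees of freedom), and Benjamini-Hochberg over 21261 genes. A standard error is the log2 fold change over the root of F. DESeq2 (1.42.0), limma on log2(FPKM + 1) and log2(FPKM + 0.1), other limits and left-out libraries were alternatives. Chi-square per degree of freedom between replicates was 2.86 to 11.8, so none was counted as 1 library. Intervals and floors cover counting error only.

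The members and the rule were chosen with earlier results of these data known. Genes were named by rule: the 2 highest in root, furthest to either rootstock, steadiest, highest in scion, nearest to each limit, and up to 2 per direction called in each scion contrast.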

Additional observations from a re-analysis of the deposited data

Results flagged for a closer look

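For Cs4g15770 the fit called a different rootstock effect in stem and leaf. It had 1 and 2 counts in stem on Cj against 6 and 4 on Pt, and 6 and 4 counts in leaf on Cj against none on Pt. The log2 difference of Cj against Pt in stem minus that in leaf was -6.86 with standard error 1.21 (adjusted p = 0.0441 by edgeR over 21261 genes, of which 0.367% were called). The size of this estimate depends on how a group with no counts is fitted, and it rests on 23 counts in 8 libraries. The gene entered the fit through its root counts, and the rule had capped its scion values, so the call is given as a value from which nothing is read.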

How the results depend on the processing

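The number of genes kept followed the limits. It was 113 with a root floor of 5 FPKM, 37 with 20 FPKM, 91 with a scion ceiling of 1 FPKM, 25 with 0.1 FPKM and 15 with 0. The scaling of the libraries also moved it. With FPKM divided by the TMM factor 77 genes were kept, 58 of them members. On TPM 67 were kept, with all 59 members among them. By an alternative added after seeing the data, 25 had whole counts in all 12 libraries, and leaving out 1 library gave 59 to 68. Between leaf and stem 5 members were called on log2(FPKM + 1), with 1 higher and 4 lower, where 11933 of all 21261 genes were. On log2(FPKM + 0.1) 14 were called, with 3 higher and 11 lower, where 11291 of all 21261 genes were. With the scion libraries alone 1 was called, where the filter kept 1 member and 10982 of 20003 genes were called. Between rootstocks in leaf 0 members were called on log2(FPKM + 1), where 1585 of 21261 genes were. With the leaf libraries alone 0 were called, where the filter kept 0 members and 1247 of 18787 genes were called. In stem 1 member was called on log2(FPKM + 0.1), where 178 of 21261 genes were. In roots 21 members were called on that scale (8 higher and 13 lower in Cj), where 11495 of 21261 genes were. On log2(FPKM + 1) 37 were called (17 and 20), where 11076 of 21261 genes were. The median log2 ratio of Cj to Pt root was 0.019 on TPM, 0.16 on CPM scaled by TMM and 0.16 on FPKM divided by the TMM factor, and 0.04 to 0.09 without 1 root library. The log2 ratio of summed counts in stem to leaf was 1.21, and 1.04 to 1.31 without 1 library. Replicate numbers are shared across groups. In 1 of 15 pairs of groups, stem on Cj with stem on Pt, replicates deviated together at a correlation above 0.1 (0.13). This cannot tell whether samples of the same number share a tree or a batch. With the replicate number as a block, 0, 1, 10 and 35 members were called in stem, leaf, leaf against stem and roots. Among all 21261 genes these calls numbered 983, 1801, 11545 and 10904. At these depths most scion levels rest on 0 to 17 counts per library.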
